A study of Homo sapiens with 12 samples.

Results

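The genes examined are 10 regulators and markers of the epithelial-to-mesenchymal transition: the transcription factors SNAI1, SNAI2, ZEB1, ZEB2, TWIST1 and TWIST2, and the marker genes VIM, CDH2, FN1 and CD44. They were taken by symbol from tables that hold 26419 gene symbols after symbols at several loci were left out, and each of the 10 lies at 1 locus. For each gene the transcript model with the most fragments over all libraries was used. The samples came from PC3, a line derived from a human prostate carcinoma, and from MG63, a line derived from a human osteosarcoma, both given as wild type in the labels. Each line received 10 nM of a non-targeting siRNA (siControl), an siRNA against LARP4A (siLARP4A) or an siRNA against LARP4B (siLARP4B), and all 6 groups share the lipid transfection and the 72 h of culture before poly(A) RNA was taken. LARP4A, whose gene symbol is LARP4, and LARP4B are related RNA-binding proteins. Each group has 2 libraries, 12 in all, which the series calls biological replicates without saying how the cultures were separated. Each line is a single line, and the number of siRNA sequences used per target is not given in the sources used here.

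In the epithelial-to-mesenchymal transition, cells give up epithelial junctions and keratins and take on a motile, matrix-producing state. SNAIL, ZEB and TWIST family factors drive the change, in large part by repressing the E-cadherin gene CDH1 through E-box sequences, and TGF-beta signalling is a main inducer of these factors. Vimentin, N-cadherin and fibronectin are the usual markers of the resulting state, and CD44 is a hyaluronan receptor often used as a surface marker of it. PC3 is a carcinoma line and so starts from an epithelial origin, whereas MG63 comes from a bone tumour of mesenchymal origin, in which these genes are part of the lineage's usual programme.

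Library totals ran from 16950119 to 24864977 fragments. Of the 9 epithelial carcinoma markers checked, 7 had a mean of at least 1 FPKM (fragments scaled to transcript length and library total) in PC3, with a summed level of 1100 to 1420 FPKM over the 6 libraries. In MG63 3 of the 9 reached that level and the sum was 54.7 to 72.4 FPKM. The 5 prostate luminal markers summed to 0.326 to 0.643 FPKM in PC3, so these markers, KLK3 among them, were close to 0 in the line labelled as prostate adenocarcinoma. MG63 held high COL1A1, COL1A2 and SPARC among the 9 osteoblastic markers, with a sum of 1920 to 2690 FPKM against 13.2 to 20.2 in PC3. In each line, however, 4 of the 9 had a mean of at least 1 FPKM. In siControl cells RUNX2 was at 0.159 FPKM in MG63 and 0.26 in PC3, and ALPL was at 0.562 in MG63. The osteoblast transcription factor gene SP7 and the bone sialoprotein gene IBSP were at 0 in both siControl groups, and SPP1 was at 0 in all 6 MG63 libraries. The siRNAs lowered their targets: LARP4 stood at 12.5% of its siControl level after siLARP4A in PC3 and at 26.1% in MG63, and LARP4B stood at 17.9% and 31.1% after siLARP4B. The other target was not level in every case: LARP4 rose 1.35-fold after siLARP4B in MG63 (log2 0.44, SE 0.059, edgeR adjusted p 5.2e-06), from 8.18 and 8.50 FPKM to 10.6 and 11.5.

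Control cells of both lines were compared first, to show the level from which each knockdown starts. Line, culture medium and library set cannot be told apart in this comparison. VIM, FN1, CD44, ZEB1, ZEB2 and SNAI1 were higher in MG63, and CDH2, SNAI2 and TWIST1 were higher in PC3. All 9 genes for which a fold change could be estimated passed the test (edgeR's quasi-likelihood test with Benjamini-Hochberg adjustment over all 15672 genes tested, threshold 0.05). So did 81.8% of all genes, with 39.7% of all genes higher and 42.1% lower in MG63. TWIST2 had 0 fragments in all 6 PC3 libraries, so no fold change is given. Taking 3 fragments per library as the floor of a count of 0, which corresponds to 0.0899 to 0.132 FPKM in the PC3 libraries, TWIST2 was at least 311-fold higher in MG63 siControl cells. The greatest fitted differences were those of ZEB2 (log2 5.95, SE 0.11, edgeR adjusted p 2.7e-22) and FN1 (log2 5.31, SE 0.077, edgeR adjusted p 2.4e-24), and the smallest was that of SNAI2 (log2 -0.99, SE 0.085, edgeR adjusted p 3.2e-10).

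Within a line, levels per length ordered the genes differently. In PC3 siControl cells the order of mean FPKM was VIM (472), CD44 (45.9), TWIST1 (28.4), CDH2 (22.6), SNAI2 (12.5), FN1 (8.61), ZEB1 (4.08), SNAI1 (2.23), ZEB2 (0.122) and TWIST2 (0), and no neighbouring pair overlapped between its 2 libraries. In MG63 it was VIM (2970), FN1 (307), CD44 (244), TWIST2 (42.3), ZEB1 (15.4), SNAI1 (9.60), TWIST1 (7.41), CDH2 (7.29), ZEB2 (6.80) and SNAI2 (5.63). The MG63 libraries of TWIST1, at 8.24 and 6.59 FPKM, spanned those of CDH2 and ZEB2, so its place beside them is not settled. TWIST1 was thus the most abundant of the 6 transcription factor transcripts in PC3, and TWIST2 in MG63. These are bulk RNA levels, in which fewer cells with a transcript and less transcript per cell cannot be told apart.

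**Figure D1:**
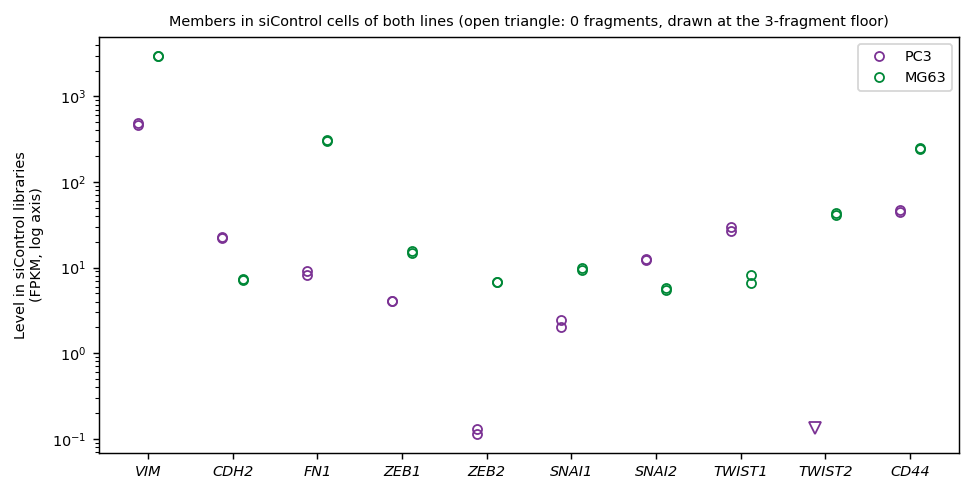
Level of each gene in FPKM, on a log axis, in the 2 siControl libraries of PC3 (purple) and of MG63 (green). The replicate circles nearly coincide, FN1, ZEB2 and TWIST2 show the widest gaps between lines, and the open triangle marks TWIST2 in PC3, with 0 fragments, at the highest 3-fragment floor of 0.132 FPKM.

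The knockdowns were then compared with siControl within each line. After siLARP4A in PC3, 6 of the 9 genes with an estimate rose (CDH2, FN1, ZEB1, ZEB2, SNAI1 and SNAI2) and CD44 fell, with a median log2 change of 0.35 beside 0.00 over all genes, of which 36.0% passed the test (17.0% higher, 19.0% lower). After siLARP4A in MG63, 4 of 10 rose (CDH2, FN1, SNAI1 and CD44) and VIM fell, with a median of 0.18 beside 0.01, and 26.4% of all genes passed (14.5% higher, 11.9% lower). After siLARP4B in PC3 none rose and 4 of 9 fell (VIM, FN1, SNAI2 and TWIST1), with a median of -0.06 beside 0.00 and 44.7% of all genes past the test (21.3% higher, 23.4% lower). After siLARP4B in MG63, 4 of 10 rose (ZEB1, SNAI1, SNAI2 and TWIST2) and none fell, with a median of 0.19 beside 0.00, and 35.1% of all genes passed (18.8% higher, 16.3% lower). The PC3 siLARP4B count was 2 without any 1 of the 4 PC3 siControl and siLARP4B libraries, and the MG63 siLARP4B count was 2 without MG63 siControl replicate 2. The comparisons within a line share their siControl libraries, so their values are given side by side below and not set against each other as independent results.

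**Figure D2:**
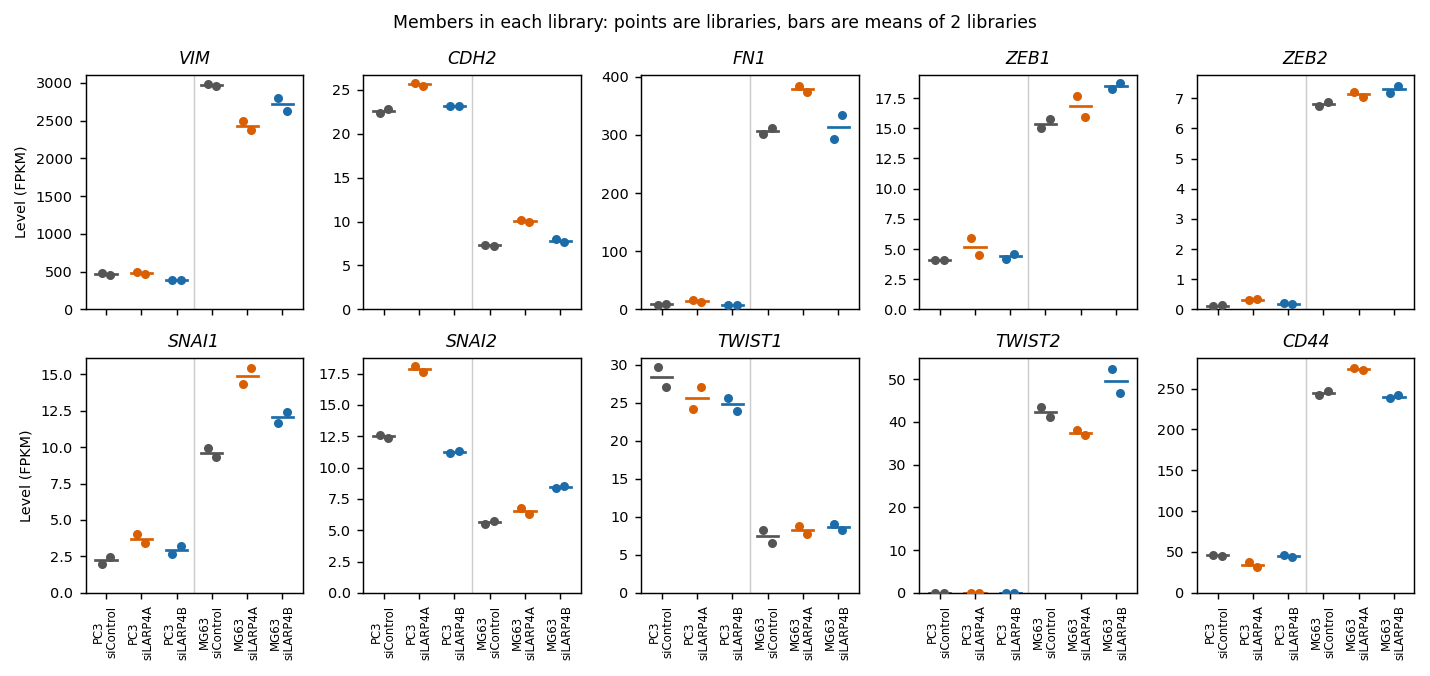
Level of each of the 10 genes in FPKM (each panel with its own linear axis from 0) in the 12 libraries, grouped by line and siRNA; points are libraries and bars are the means of 2 libraries. SNAI1 sits above both siControl libraries in all 4 knockdown groups, CD44 lies lowest in PC3 siLARP4A and highest in MG63 siLARP4A, and TWIST2 is at 0 throughout PC3.

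SNAI1 encodes SNAIL, a zinc-finger repressor of CDH1 (chr20:49982980-49988883, plus strand, a 1702-base model). In PC3 its FPKM in replicates 1 and 2 was 2.00 and 2.47 with siControl, 4.02 and 3.41 with siLARP4A, and 2.67 and 3.19 with siLARP4B. The MG63 libraries, in the same order, gave 9.90 and 9.29, 14.3 and 15.4, and 11.7 and 12.4. Every knockdown library lay above both siControl libraries of its line. After siLARP4A SNAI1 rose 1.66-fold in PC3 (log2 0.73, SE 0.15, edgeR adjusted p 0.00072) and 1.57-fold in MG63 (log2 0.65, SE 0.10, edgeR adjusted p 3.2e-05), and the effects in the lines differed by a log2 value of 0.08 (SE 0.18, edgeR adjusted p 0.87). After siLARP4B it rose 1.28-fold in MG63 (log2 0.36, edgeR adjusted p 0.0087), and its log2 change in PC3 was 0.34 with an edgeR adjusted p of 0.11. With log2(FPKM + 1) values in limma that PC3 change passed (0.28, limma adjusted p 0.037). The MG63 siLARP4B call was lost without siControl replicate 2 (log2 0.30, edgeR adjusted p 0.11) or siLARP4B replicate 2 (log2 0.30, edgeR adjusted p 0.076).

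SNAI2 encodes SLUG, a second SNAIL family repressor (chr8:48917598-48921429, minus strand, a 2180-base model). PC3 libraries stood at 12.6 and 12.4 FPKM with siControl, 18.1 and 17.7 with siLARP4A, and 11.2 and 11.3 with siLARP4B. MG63 libraries stood at 5.50 and 5.77, 6.80 and 6.33, and 8.40 and 8.51. The higher knockdown group was therefore siLARP4A in PC3 and siLARP4B in MG63, with no overlap between groups in either line. SNAI2 rose 1.42-fold after siLARP4A in PC3 (log2 0.51, SE 0.072, edgeR adjusted p 8.5e-06) and 1.53-fold after siLARP4B in MG63 (log2 0.61, SE 0.089, edgeR adjusted p 1.3e-05). Its change after siLARP4A in MG63 was 0.24 (edgeR adjusted p 0.066), and passed in limma (0.19, limma adjusted p 0.021). The effect of siLARP4B was lower in PC3 than in MG63 (PC3 minus MG63 log2 -0.81, SE 0.12, edgeR adjusted p 2.1e-05). The fall after siLARP4B in PC3 was small (log2 -0.20, SE 0.077, edgeR adjusted p 0.041) and was lost in 11 of 20 alternatives, including without any 1 of the 6 PC3 libraries (log2 -0.19 to -0.14, edgeR adjusted p 0.081 to 0.28).

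ZEB1 and ZEB2 encode zinc-finger and homeodomain repressors that bind paired E-boxes and are held down in epithelial cells by the miR-200 family. ZEB1 (chr10:31319216-31529804, plus strand, a 6236-base model) stood at 4.11 and 4.06 FPKM with siControl, 5.91 and 4.46 with siLARP4A, and 4.21 and 4.60 with siLARP4B in PC3. In MG63 it stood at 14.98 and 15.7, 17.7 and 15.9, and 18.2 and 18.7. The siLARP4A replicates lay further apart than the siControl replicates in both lines. ZEB1 rose 1.27-fold after siLARP4A in PC3 (log2 0.35, SE 0.098, edgeR adjusted p 0.0075), and this rested on siLARP4A replicate 1, without which the change was 0.14 (edgeR adjusted p 0.26). In MG63 it rose 1.23-fold after siLARP4B (log2 0.29, SE 0.078, edgeR adjusted p 0.0051), which was lost without siControl replicate 1 (log2 0.26, edgeR adjusted p 0.076), and changed by 0.15 after siLARP4A (edgeR adjusted p 0.18). The difference between lines in the siLARP4A effect was 0.20 (edgeR adjusted p 0.37), and passed the test without PC3 siLARP4A replicate 2 (0.43, edgeR adjusted p 0.005). With the log2(FPKM + 1) values in limma both ZEB1 calls against siControl were lost (limma adjusted p 0.053 in PC3 and 0.072 in MG63). With only the libraries compared, the ZEB1 change after siLARP4A in MG63 passed (0.13, edgeR adjusted p 0.017).

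ZEB2 (chr2:144384081-144520119, minus strand, a 9265-base model) was nearly silent in PC3, with 19 and 23 fragments with siControl, 70 and 58 with siLARP4A, and 35 and 29 with siLARP4B. These counts correspond to 0.114 and 0.130, 0.304 and 0.330, and 0.197 and 0.185 FPKM. The 3 PC3 groups did not overlap, and all of them remained far below the 6.74 to 7.42 FPKM of the 6 MG63 libraries. ZEB2 rose 2.55-fold after siLARP4A in PC3 (log2 1.35, SE 0.20, edgeR adjusted p 1.4e-05), the greatest change of any of the 10 genes after a knockdown, and its change after siLARP4B was 0.60 (SE 0.23, edgeR adjusted p 0.071). In MG63 its log2 changes were 0.09 after siLARP4A and 0.13 after siLARP4B, neither past the test. The siLARP4A effect in PC3 exceeded that in MG63 by 1.26 (SE 0.21, edgeR adjusted p 0.00034). On the log2(FPKM + 1) scale, which compresses levels this low, that difference was 0.17 and did not pass the test (limma adjusted p 0.20). Over the 8411 genes with a mean of at least 5 FPKM, those with 4 log2 changes most like the ZEB2 values were TNFAIP2 (1.42, 0.66, 0.21 and -0.02 for siLARP4A and siLARP4B in PC3 and then in MG63), HSPB8 (1.37, 0.52, 0.29 and 0.02) and FLNC-AS1 (1.09, 0.53, -0.02 and 0.06), at root-mean-square differences of 0.109, 0.123 and 0.147 over the 4 comparisons.

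Of the 6 genes that rose after siLARP4A in PC3, ZEB1, ZEB2, FN1 and CDH2 have a RefSeq promoter entry, and the sequences before their start sites are shown because SNAIL and ZEB proteins are known to bind the E-box letters CACCTG or CAGGTG. Each run is the 250 bases before the start of the model used, 5′ to 3′ on the gene's strand, from RefSeq on GRCh38.p14, at chr10:31318966-31319215 for ZEB1 (plus), chr2:144520120-144520369 for ZEB2 (minus), chr2:215436069-215436318 for FN1 (minus) and chr18:28177131-28177380 for CDH2 (minus). Capitals mark any CANNTG, the general E-box, which includes CACCTG and CAGGTG, and any TGACGTCA, the cyclic AMP response element.
ZEB1: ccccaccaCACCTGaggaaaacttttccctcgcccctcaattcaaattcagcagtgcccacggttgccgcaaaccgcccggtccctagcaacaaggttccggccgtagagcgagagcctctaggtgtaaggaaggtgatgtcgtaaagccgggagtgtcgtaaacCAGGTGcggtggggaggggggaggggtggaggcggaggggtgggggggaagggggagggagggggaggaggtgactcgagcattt
ZEB2: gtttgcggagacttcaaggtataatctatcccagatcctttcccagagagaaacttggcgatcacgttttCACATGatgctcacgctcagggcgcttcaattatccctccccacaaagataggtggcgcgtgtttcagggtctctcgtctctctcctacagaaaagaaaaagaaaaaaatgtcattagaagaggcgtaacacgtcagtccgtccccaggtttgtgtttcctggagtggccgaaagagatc
FN1: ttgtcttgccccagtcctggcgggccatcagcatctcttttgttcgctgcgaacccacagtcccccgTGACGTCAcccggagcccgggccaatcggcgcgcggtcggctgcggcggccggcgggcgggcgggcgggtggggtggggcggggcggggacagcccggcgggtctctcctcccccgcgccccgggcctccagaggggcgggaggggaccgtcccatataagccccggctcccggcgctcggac
CDH2: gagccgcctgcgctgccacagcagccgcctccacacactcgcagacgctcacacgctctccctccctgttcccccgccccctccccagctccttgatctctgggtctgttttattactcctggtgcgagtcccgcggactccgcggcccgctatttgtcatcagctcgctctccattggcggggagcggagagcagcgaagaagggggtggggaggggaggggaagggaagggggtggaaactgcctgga
The ZEB1 run holds CACCTG at 242 and CAGGTG at 85 bases before the start, and a further CAGGTG begins at base 34 after it. ZEB1 also has other RefSeq start sites. The window at chr10:31318167-31318466 holds CAGGTG at 57 bases before its start, and the remaining ZEB1 windows hold neither CACCTG nor CAGGTG. A model from that start counted 14963 fragments against 15139 for the model used, so the counts do not settle which start is used. ZEB2 has CACATG at 180 bases before its start and FN1 has TGACGTCA at 183. The searched window runs from 250 bases before to 50 after a start, on both strands, and in it CACCTG or CAGGTG occurs in 20.6% of 35116 RefSeq promoters, CANNTG in 68.7% and TGACGTCA in 1.85%. The GC content of this window was 61.7% for ZEB1, 49.0% for ZEB2 and 76.7% for FN1, beside a median of 58.7% over all promoters. The windows at the start sites used for VIM, CD44, CDH2 and TWIST2 hold none of these letters. RefSeq promoters were matched for 7 of the 10 genes, and SNAI1, SNAI2 and TWIST1 had no entry. A match of letters is a description of the window and not a measured binding site.

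TWIST1 and TWIST2 encode basic helix-loop-helix factors of mesoderm development that also bind E-boxes, and their levels were reversed between the lines, with TWIST1 higher in PC3 and TWIST2 in MG63. TWIST1 (chr7:19115468-19117636, minus strand, a 1630-base model) stood in PC3 at 29.7 and 27.1 FPKM with siControl, 24.2 and 27.0 with siLARP4A, and 25.6 and 24.0 with siLARP4B. In MG63 it stood at 8.24 and 6.59, 8.85 and 7.70, and 8.99 and 8.23. All 4 PC3 knockdown libraries lay below both siControl libraries, with siLARP4A replicate 2 the closest, whereas the MG63 groups overlapped. TWIST1 fell after siLARP4B in PC3 (log2 -0.24, SE 0.087, edgeR adjusted p 0.032) and changed by -0.16 after siLARP4A (edgeR adjusted p 0.15). Its MG63 changes were 0.18 and 0.25 for siLARP4A and siLARP4B, neither past the test, although the second passed without siControl replicate 1 (0.41, edgeR adjusted p 0.038). The fall in PC3 was lost without siControl replicate 1 (-0.12, edgeR adjusted p 0.40), siLARP4B replicate 1 (-0.25, edgeR adjusted p 0.091) or siLARP4B replicate 2 (-0.16, edgeR adjusted p 0.30), by DESeq2 (-0.22, DESeq2 adjusted p 0.13), in limma and with the longest model. The siLARP4B effect differed between lines by -0.48 (SE 0.15, edgeR adjusted p 0.017), which was lost in limma (-0.38, limma adjusted p 0.066) and without PC3 siControl replicate 1, PC3 siLARP4B replicate 2, MG63 siControl replicate 2 or MG63 siLARP4B replicate 1 (-0.42 to -0.33, edgeR adjusted p 0.072 to 0.15).

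TWIST2 (chr2:238848085-238910534, plus strand, a 1342-base model) was measured only in MG63. Its levels there were 43.4 and 41.2 FPKM with siControl, 38.0 and 37.0 with siLARP4A, and 52.3 and 46.8 with siLARP4B. The groups did not overlap, with siLARP4A lowest and siLARP4B highest. TWIST2 rose 1.20-fold after siLARP4B (log2 0.26, SE 0.072, edgeR adjusted p 0.0088) and changed by -0.15 after siLARP4A (SE 0.074, edgeR adjusted p 0.14). The siLARP4A change passed with only the libraries compared (-0.17, edgeR adjusted p 0.012). Between the siRNAs the difference, siLARP4A minus siLARP4B, was -0.41 (SE 0.073, edgeR adjusted p 0.00013). The siLARP4B call was lost without siControl replicate 2 (0.21, edgeR adjusted p 0.12) or siLARP4B replicate 1 (0.17, edgeR adjusted p 0.16). The 0 fragments in PC3 after either siRNA leave TWIST2 under the same floor there as in siControl cells.

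VIM encodes vimentin, the intermediate filament protein of mesenchymal cells (chr10:17228241-17237593, plus strand, a 2154-base model). In PC3 it stood at 482 and 462 FPKM with siControl, 500 and 466 with siLARP4A, and 386 and 386 with siLARP4B. In MG63 it stood at 2981 and 2964, 2493 and 2372, and 2803 and 2631. VIM was thus lowest with siLARP4B in PC3 and with siLARP4A in MG63. It fell by 20.6% after siLARP4B in PC3 (log2 -0.33, SE 0.044, edgeR adjusted p 1.6e-06) and fell by 17.1% after siLARP4A in MG63 (log2 -0.27, SE 0.043, edgeR adjusted p 5.2e-05). The change after siLARP4A in PC3 was 0.02 (SE 0.043, edgeR adjusted p 0.77). After siLARP4B in MG63 it was -0.10 (edgeR adjusted p 0.071), a value that passed the test in 7 of the 12 fits that leave out 1 library (edgeR adjusted p 0.011 to 0.044): without either replicate of PC3 siControl, PC3 siLARP4A or MG63 siLARP4A, or without MG63 siLARP4B replicate 1. The siLARP4A effects differed between lines by 0.29 (SE 0.061, edgeR adjusted p 0.0029), and the siLARP4B effects by -0.23 (SE 0.061, edgeR adjusted p 0.0066). The second of these was lost without PC3 siControl replicate 1 (-0.15, edgeR adjusted p 0.10) or either PC3 siLARP4B library (-0.18 and -0.19, edgeR adjusted p 0.065 and 0.056). With the deduplicated table of PC3 siControl replicate 2 neither difference passed, at 0.37 for siLARP4A (edgeR adjusted p 0.073) and -0.15 for siLARP4B (edgeR adjusted p 0.41), and in limma the second was -0.16 (limma adjusted p 0.099). Only that library was deduplicated in the former fit, in which the SE of both differences was 0.12. Because it mixes unlike libraries, that fit cannot show the effect of duplicates. The antisense gene VIM-AS1 overlaps 1745 bases of the VIM span on the other strand and is listed with 34.1% to 38.5% as many fragments as VIM in every library. Strand handling is not given in the sources used here, so reads of the pair cannot be told apart.

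CDH2 encodes N-cadherin, the adhesion protein that replaces E-cadherin in mesenchymal cells (chr18:27950966-28177130, minus strand, a 4016-base model). PC3 libraries stood at 22.3 and 22.8 FPKM with siControl, 25.8 and 25.4 with siLARP4A, and 23.2 and 23.1 with siLARP4B. MG63 libraries stood at 7.36 and 7.21, 10.1 and 9.92, and 7.98 and 7.67. In each line siLARP4A gave the highest pair. CDH2 rose 1.40-fold after siLARP4A in MG63 (log2 0.48, SE 0.064, edgeR adjusted p 6.1e-06) and 1.13-fold in PC3 (log2 0.17, SE 0.052, edgeR adjusted p 0.013). The PC3 call was lost when only the libraries of that comparison were fitted (log2 0.17, edgeR adjusted p 0.057). Its changes after siLARP4B were -0.00 in PC3 (SE 0.053) and 0.13 in MG63 (SE 0.066), with edgeR adjusted p of 0.97 and 0.13. The siLARP4A effects differed between lines by -0.31 (SE 0.083, edgeR adjusted p 0.017), a call lost in 11 of 20 alternatives, 9 of them fits without 1 library (-0.32 to -0.25, edgeR adjusted p 0.052 to 0.11): either replicate of MG63 siControl, MG63 siLARP4A, PC3 siControl or PC3 siLARP4B, or PC3 siLARP4A replicate 2.

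E-cadherin, the usual counterpart of N-cadherin, was present at a low level in PC3 and nearly absent from MG63. In PC3 the mean CDH1 level was 3.45 ± 0.307 FPKM in siControl cells (SD, n = 2 libraries), 3.53 ± 0.347 in siLARP4A cells and 4.49 ± 0.189 in siLARP4B cells, and in MG63 siControl cells it was 0.00537 ± 0.00759. CDH1 was named after its values were seen, and a link between its changes and those of the 10 genes was not tested. CDH1 rose after siLARP4B in PC3 (log2 0.34, SE 0.12, edgeR adjusted p 0.02) and changed by 0.03 after siLARP4A (edgeR adjusted p 0.88). Its rise was lost without siControl replicate 2 (0.27, edgeR adjusted p 0.14) or siLARP4B replicate 1 (0.33, edgeR adjusted p 0.098), and by DESeq2 (0.36, DESeq2 adjusted p 0.09).

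FN1 encodes fibronectin, a matrix glycoprotein bound by integrins (chr2:215360865-215436068, minus strand, an 8390-base model). In PC3 it stood at 8.16 and 9.06 FPKM with siControl, 15.8 and 13.0 with siLARP4A, and 7.28 and 7.24 with siLARP4B. In MG63 it stood at 302 and 312, 385 and 373, and 293 and 334. The siLARP4A libraries were the highest in both lines, and the MG63 siLARP4B libraries lay on either side of siControl. FN1 rose 1.66-fold after siLARP4A in PC3 (log2 0.73, SE 0.071, edgeR adjusted p 4.5e-08) and 1.25-fold in MG63 (log2 0.32, SE 0.061, edgeR adjusted p 0.00037), with a difference between lines of 0.41 (SE 0.094, edgeR adjusted p 0.0056). That difference did not pass with the deduplicated table of PC3 siControl replicate 2 (0.39, edgeR adjusted p 0.068), a fit in which the other libraries were not deduplicated, or in limma (0.37, limma adjusted p 0.069). After siLARP4B FN1 fell in PC3 (log2 -0.29, SE 0.075, edgeR adjusted p 0.0033), which was lost without siControl replicate 2 (-0.19, edgeR adjusted p 0.12) or in limma (-0.22, limma adjusted p 0.06), and changed by 0.06 in MG63 (edgeR adjusted p 0.50). The siLARP4B effects differed by -0.35 (SE 0.097, edgeR adjusted p 0.0098), lost without PC3 siControl replicate 2, either PC3 siLARP4B library or MG63 siLARP4B replicate 2 (-0.31 to -0.24, edgeR adjusted p 0.051 to 0.13), by DESeq2 (-0.32, DESeq2 adjusted p 0.092) and in limma (-0.25, limma adjusted p 0.15).

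CD44 encodes the main hyaluronan receptor (chr11:35139171-35232402, plus strand, a 5431-base model). PC3 libraries stood at 46.9 and 45.0 FPKM with siControl, 37.7 and 31.4 with siLARP4A, and 46.7 and 44.3 with siLARP4B. MG63 libraries stood at 242 and 247, 275 and 272, and 238 and 242. CD44 with siLARP4A was therefore the lowest group in PC3 and the highest in MG63. It fell by 25.3% in PC3 (log2 -0.42, SE 0.058, edgeR adjusted p 5.8e-06) and rose by 13.5% in MG63 (log2 0.18, SE 0.055, edgeR adjusted p 0.016), a difference between lines of -0.60 (SE 0.080, edgeR adjusted p 2.4e-05). The fall in PC3 and the difference between lines held under all 20 alternatives run, whereas the rise in MG63 was lost without any 1 of the 4 MG63 siControl and siLARP4A libraries (0.16 to 0.18, edgeR adjusted p 0.077 to 0.13) and in limma (0.16, limma adjusted p 0.11). Its changes after siLARP4B were -0.06 in PC3 and 0.00 in MG63 (SE 0.058 and 0.055, edgeR adjusted p 0.46 and 1.0).

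**Figure D3:**
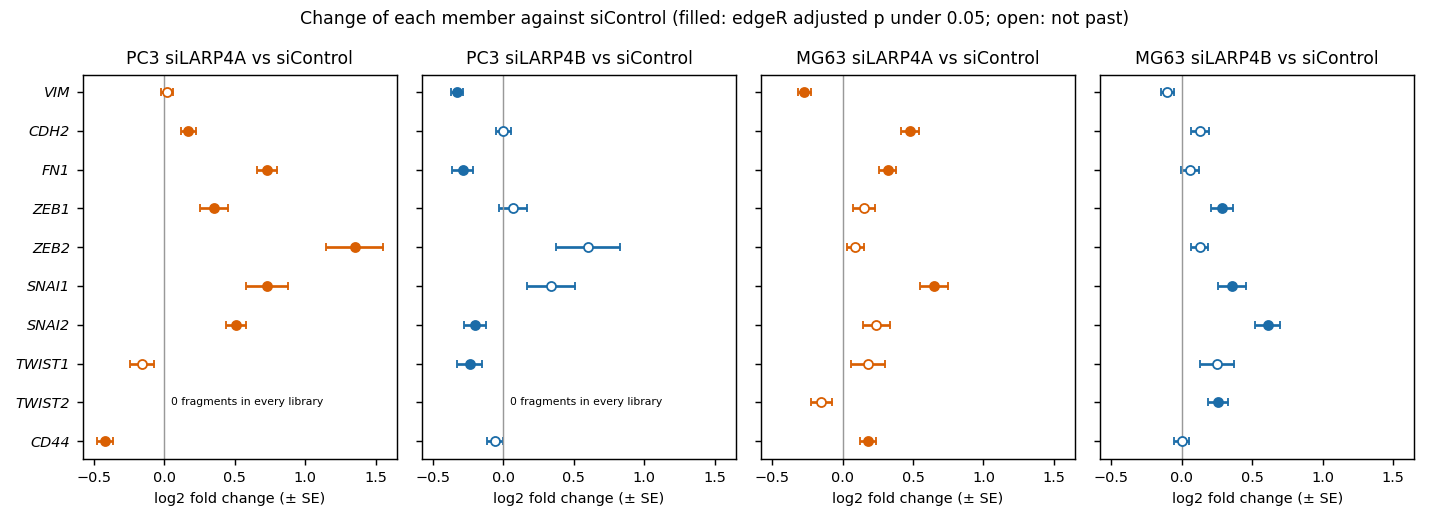
Log2 fold change against siControl with its SE for each gene in the 4 knockdown comparisons; filled points passed an edgeR adjusted p of 0.05. ZEB2 in PC3 after siLARP4A lies farthest from 0 at 1.35, and CD44 after siLARP4A lies at -0.42 in PC3 and 0.18 in MG63.

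The siRNAs were also compared directly within each line. In PC3, 7 of 9 genes were higher with siLARP4A than with siLARP4B and CD44 was lower, beside 54.2% of all genes past the test (27.0% higher, 27.1% lower). FN1 differed most, by 1.02 (SE 0.072, edgeR adjusted p 8e-11), followed by ZEB2 (0.75, edgeR adjusted p 0.0014), SNAI2 (0.70, edgeR adjusted p 3.4e-08), SNAI1 (0.39, edgeR adjusted p 0.029), VIM (0.35, edgeR adjusted p 4.4e-07), ZEB1 (0.28, edgeR adjusted p 0.018) and CDH2 (0.18, edgeR adjusted p 0.0069). In MG63 CDH2 (0.35), SNAI1 (0.30), FN1 (0.26) and CD44 (0.18) were higher and TWIST2 (-0.41), SNAI2 (-0.38) and VIM (-0.17) were lower with siLARP4A, beside 43.5% of all genes (22.1% higher, 21.5% lower). VIM and SNAI2 thus stood on the siLARP4A side in PC3 and on the siLARP4B side in MG63. The PC3 count was 5 without siLARP4B replicate 1. In PC3 the SNAI1 and ZEB1 calls were each lost without siLARP4A replicate 1 (0.25 and 0.05, edgeR adjusted p 0.28 and 0.72) or siLARP4B replicate 1 (0.25 and 0.21, edgeR adjusted p 0.28 and 0.18), and the CDH2 call without either siLARP4B library (0.17, edgeR adjusted p 0.053). In limma the PC3 calls of ZEB2 (0.15, limma adjusted p 0.056) and ZEB1 (0.19, limma adjusted p 0.13) were lost, and DESeq2 lost that of SNAI1 (0.38, DESeq2 adjusted p 0.079). With only the libraries compared, SNAI1 and ZEB1 were at 0.40 and 0.29 (edgeR adjusted p 0.055 and 0.056). In MG63 the SNAI1 call was lost without siLARP4A replicate 2 or siLARP4B replicate 1 (0.24 and 0.25, edgeR adjusted p 0.15 and 0.11) and by DESeq2 (0.29, DESeq2 adjusted p 0.093), and the CD44 call without siLARP4A replicate 1 (0.17, edgeR adjusted p 0.06).

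Differences between lines in the knockdown effect were tested as interaction terms, in which line, culture medium and library set again cannot be told apart. For siLARP4A 5 of 9 genes passed (VIM, FN1 and ZEB2 with a higher change in PC3, CDH2 and CD44 with a lower one), beside 11.4% of all genes (4.09% higher, 7.29% lower). For siLARP4B 4 of 9 passed (VIM, FN1, SNAI2 and TWIST1), all with a lower change in PC3, beside 27.9% of all genes (10.3% higher, 17.6% lower). The siLARP4B count was 2 without PC3 siControl replicate 1 or PC3 siLARP4B replicate 1 and 1 without PC3 siLARP4B replicate 2. SNAI1 and ZEB1 passed neither test.

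FN1 and CD44 are both known for alternative exons: fibronectin's extra domains A and B (EDA and EDB) are included in cellular fibronectin, and the variable exons of CD44 are typical of epithelial forms. The tables hold nested models with and without them, so the fragments counted in the longer model but not in the shorter one were taken as a share of the longer model's fragments. This measure was chosen after the values had been seen and carries no test, since an exact permutation test of 2 against 2 libraries cannot go below 0.333. EDB (chr2:215392931-215393203, from GENCODE release 29 on GRCh38) is 3.25% of the length of the FN1 model. In MG63 its share was 0.803% and 0.966% with siControl, 1.07% and 1.16% with siLARP4A, and 1.45% and 1.61% with siLARP4B. The 3 groups did not overlap, although intervals of siLARP4A and siControl libraries did. The exact (Clopper-Pearson) 95% intervals, which cover counting error only, ran from 0.723% to 1.06% over the siControl libraries and from 1.35% to 1.72% over the siLARP4B libraries. FN1 itself changed by only 0.06 on the log2 scale after siLARP4B in MG63. EDA (chr2:215380811-215381080) lay between 1.94% and 2.22% in the same 6 libraries. In PC3, on 17 to 54 fragments per library, the EDA share was 2.52% and 2.00% with siControl, 1.64% and 1.54% with siLARP4A, and 2.48% and 1.65% with siLARP4B. The PC3 siLARP4A libraries thus lay below both siControl libraries for EDA, with intervals that overlapped. In PC3 EDB rested on 4 to 16 fragments per library, with wide intervals. Its siControl libraries gave shares of 0.488% and 0.276%, its siLARP4A libraries 0.486% and 0.724%, and its siLARP4B libraries 1.37% and 0.972%. The siLARP4B libraries thus lay above both other groups for EDB in PC3 too, with intervals that overlapped in part.

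For CD44, the 9 variable exons v2 to v10 make up 21.0% of the length of the model used but gave 0.622% to 1.70% of its fragments, far less than even coverage of that model would give. In MG63 their share was 0.656% and 0.622% with siControl, 0.704% and 0.685% with siLARP4A, and 1.31% and 1.70% with siLARP4B. The siLARP4B mean was 2.35 times the siControl mean, with CD44 as a whole at a log2 change of 0.00. For v8 to v10 alone the MG63 shares were 0.299% and 0.318%, 0.281% and 0.289%, and 0.604% and 0.805%. PC3 shares of v2 to v10 lay between 0.959% and 1.40% in all 6 libraries, with siLARP4A lowest at 1.10% and 0.959%. For v8 to v10 the PC3 shares were 1.14% and 0.949%, 0.691% and 0.683%, and 0.827% and 0.985%, so siLARP4A lay below siControl there too, with overlapping intervals.

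**Figure D4:**
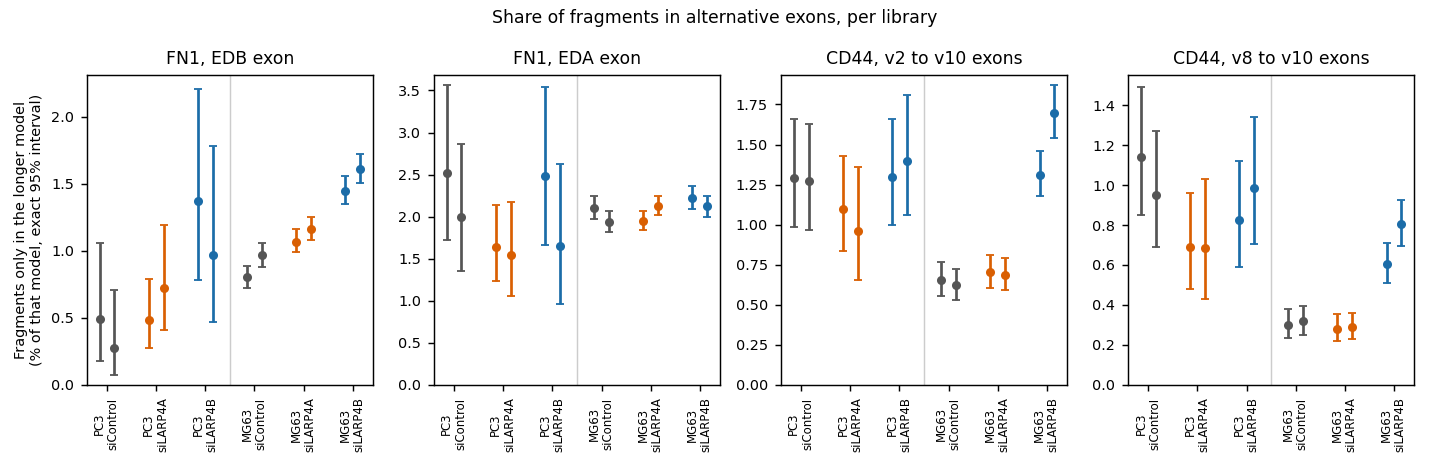
Fragments found only in the longer of 2 nested models, as a percentage of that model's fragments, for FN1 EDB and EDA and for CD44 v2 to v10 and v8 to v10 in each library, with exact 95% intervals that cover counting error only. In MG63 the siLARP4B libraries lie above both other groups for EDB and for the CD44 exons, while the MG63 group means for EDA are 2.02% to 2.17%. In PC3 siLARP4A lies below siControl for EDA and for the CD44 exons, and siLARP4B lies above both other groups for EDB, on few fragments and with intervals that overlap in part.

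Related genes were described by 8 lists, each given by its counts, its median log2 change and the share of its tested genes that passed the test, with siLARP4A before siLARP4B and PC3 before MG63. Over all genes these shares were 36.0% and 44.7% in PC3 and 26.4% and 35.1% in MG63, and nothing particular to a list is read from its own. The genes named are the highest and lowest of a list in 1 comparison, and calls of the opposite direction in another comparison are given with them or with another list that holds them. Calls of the same direction elsewhere are not all given, so a gene named in 1 line may have changed likewise in the other. Of 37 other mesenchymal genes (matrix, contractile and surface genes), 14 rose and 9 fell after siLARP4A in PC3 (median 0.18) and 14 rose and 6 fell after siLARP4B (median 0.32). In MG63 22 rose and 2 fell after siLARP4A (median 0.22), and 12 rose and 9 fell after siLARP4B (median 0.10). The shares called were 62.2%, 54.1%, 64.9% and 56.8%, beside 36.0%, 44.7%, 26.4% and 35.1% of all genes. The 24 calls after siLARP4A in MG63 became 15 without MG63 siControl replicate 2. The collagen I gene COL1A1 rose 3.36-fold after siLARP4A in PC3 (log2 1.75), from 2.43 to 8.25 FPKM, while the calcium-binding protein gene S100A4 fell by 0.77 on the log2 scale. The smooth muscle actin gene ACTA2 rose after both siRNAs in MG63 (log2 1.56 and 0.75), COL3A1 fell after siLARP4A (log2 -0.19, lost without siControl replicate 2 at -0.18 or siLARP4A replicate 2 at -0.11) and the thrombospondin gene THBS1 fell after siLARP4B (log2 -0.88). COL3A1 rose after siLARP4B in both lines (0.74 in PC3 and 0.23 in MG63), and THBS1 rose after siLARP4A in MG63 (1.07) and fell after both siRNAs in PC3 (-0.32 and -0.69). In PC3 siLARP4B cells the matrix protein gene SPARC rose by 1.04 and the collagen V gene COL5A2 fell by 1.33 on the log2 scale. SPARC fell after siLARP4A in PC3 (-0.76), and COL5A2 rose after both siRNAs in MG63 (0.26 and 0.24).

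Among the 24 tested of 30 epithelial genes, 4 rose and 7 fell after siLARP4A in PC3 (median 0.02), and 5 rose and 7 fell after siLARP4B (median -0.02). In MG63, where most of them are barely present, the counts were 5 and 1 (median 0.29) and 0 and 5 (median -0.08). The shares were 45.8%, 50%, 25% and 20.8%, beside 36.0%, 44.7%, 26.4% and 35.1% of all genes. The keratin gene KRT8 rose by 0.50 after siLARP4A in PC3 and the tight junction gene CLDN3 fell by 1.00 on the log2 scale, so members of the list went both ways. CLDN3 also fell after siLARP4B in PC3 (log2 -0.68), where CLDN1 rose (0.84). KRT8 fell after siLARP4B in MG63 (-0.18). In MG63 KRT7 fell after siLARP4B (-0.57), and its rise after siLARP4A (0.34) was lost without any 1 of the 4 libraries compared (0.32 to 0.35, edgeR adjusted p 0.061 to 0.10). Counts of epithelial calls became 6 without PC3 siControl replicate 1 for siLARP4A in PC3. In MG63 they became 2, 3 and 1 for siLARP4A without siControl replicate 1, siControl replicate 2 and siLARP4A replicate 2, and 3 for siLARP4B without siControl replicate 1.

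TGF-beta ligands, receptors, SMADs and feedback genes, all 26 of which were tested, gave the following counts. After siLARP4A 9 rose and 5 fell in PC3 (median 0.05) and 13 rose and 2 fell in MG63 (median 0.24). After siLARP4B 6 rose and 7 fell in PC3 (median 0.03) and 7 rose and 10 fell in MG63 (median -0.07). The shares were 53.8%, 50%, 57.7% and 65.4%, in the same order as the all-gene shares of 36.0%, 44.7%, 26.4% and 35.1%. CCN2 fell after siLARP4A in PC3 (-0.27) and after siLARP4B in PC3 (-0.30) and MG63 (-0.20). The latent TGF-beta binding protein gene LTBP3 rose after siLARP4B in PC3 (0.56). The inhibitory SMAD gene SMAD6 fell after siLARP4A in MG63 (-0.70) and PC3 (-0.83) and after siLARP4B in MG63 (-0.23). The SMAD corepressor gene SKI rose after siLARP4B in MG63 (0.37) and after siLARP4A in PC3 (0.20). LTBP3 fell after siLARP4B in MG63 (-0.37).

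The list of other transition regulators and their cofactors had 31 of 32 genes tested. After siLARP4A 5 rose and 7 fell in PC3 (median 0.00) and 4 rose and 9 fell in MG63 (median -0.11). After siLARP4B 2 rose and 16 fell in PC3 (median -0.23), and 8 rose and 5 fell in MG63 (median 0.07). The shares of this list called were 38.7%, 58.1%, 41.9% and 41.9%, against 36.0%, 44.7%, 26.4% and 35.1% overall. HMGA2, a chromatin protein gene that acts upstream of SNAIL and TWIST, rose in PC3 after both siRNAs (0.48 and 0.62) and in MG63 after siLARP4B (0.74), and fell in MG63 after siLARP4A (-0.29). The corepressor gene RCOR1 fell after siLARP4A in PC3 (-0.80) and MG63 (-0.70). The TAZ gene WWTR1 fell after siLARP4B in PC3 (-0.91) and after siLARP4A in both lines (-0.27 in each). ETS1 fell after siLARP4B in MG63 (-0.62) and PC3 (-0.75) but rose after siLARP4A (0.27 and 0.44). The MG63 siLARP4A count of 13 became 8 without siLARP4A replicate 1. In those cells KLF4 rose (0.37, lost without siControl replicate 1 at 0.24) and the homeobox gene PRRX2 fell (-0.37). In PC3 both rose after siLARP4A (0.29 and 0.90) and fell after siLARP4B (-0.31 and -0.79).

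Kinases and ubiquitin pathway genes that set the stability of SNAIL family proteins were tested for 16 of 17 genes. After siLARP4A 8 rose and 2 fell in each line (medians 0.16 in PC3 and 0.17 in MG63), and after siLARP4B 1 rose and 6 fell in PC3 (median -0.10) and 3 rose and 5 fell in MG63 (median -0.06). They make shares of 62.5%, 43.8%, 62.5% and 50%, where all genes gave 36.0%, 44.7%, 26.4% and 35.1%. The ubiquitin ligase gene FBXO45 fell after siLARP4B in PC3 (-1.30) and in MG63 (-0.42) and after siLARP4A in MG63 (-0.57) and PC3 (-0.36). FBXW7 rose (0.60) and FBXL14 fell (-0.58) after siLARP4A in PC3, LATS2 rose after siLARP4A in MG63 (0.62) and FBXL14 rose after siLARP4B in MG63 (0.43, lost without siControl replicate 1 at 0.35). FBXW7 fell after siLARP4B in PC3 (-0.45), and LATS2 fell after siLARP4B in MG63 (-0.26). The 10 calls after siLARP4A in MG63 became 6 without any 1 of the 4 libraries compared. These are RNA levels, and SNAIL protein was not measured.

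Fibronectin receptors and cadherin partners were tested for 19 of 23 genes, with 8 higher and 4 lower after siLARP4A in PC3 (median 0.11) and 11 higher and 0 lower in MG63 (median 0.27), the comparisons in which FN1 and CDH2 rose. After siLARP4B 3 rose and 8 fell in PC3 (median -0.04) and 6 rose and 4 fell in MG63 (median 0.05). The shares called were 63.2%, 57.9%, 57.9% and 52.6%, and those of all genes 36.0%, 44.7%, 26.4% and 35.1%. The number of calls after siLARP4B became 7 without siLARP4B replicate 1 in PC3 and 6 without siControl replicate 1 in MG63. ITGA5, the alpha chain of the main fibronectin receptor, rose after siLARP4A in PC3 (0.61) and MG63 (0.50) and after siLARP4B in MG63 (0.45). ITGB3 rose after siLARP4A in MG63 (0.98) and PC3 (0.77). ITGAV fell after siLARP4A in PC3 (-0.32), and the adaptor gene PXN fell after siLARP4B in PC3 (-1.04) and MG63 (-0.72). After siLARP4A in MG63, ITGAV and PXN rose (0.39 and 0.52), and PXN also rose in PC3 (0.15). Hyaluronan and CD44 partner genes, 16 of 21 tested, gave 9 higher and 2 lower after siLARP4A in PC3 (median 0.18), where CD44 fell, and 2 and 3 in MG63 (median -0.04). After siLARP4B they gave 0 higher and 7 lower in PC3 (median -0.14) and 1 and 7 in MG63 (median -0.19). Their shares were 68.8%, 43.8%, 31.2% and 50%. In MG63 the calls became 3 without siLARP4A replicate 1 for siLARP4A and 5 without siControl replicate 2 for siLARP4B. The cell-surface hyaluronidase gene CEMIP2 rose after siLARP4A in PC3 (1.12) and MG63 (0.96). MSN, which links CD44 to actin, rose after siLARP4A in PC3 (0.37) and MG63 (0.16, lost without MG63 siControl replicate 1 or siLARP4A replicate 1, both at 0.14). HMMR, a hyaluronan-binding protein of the mitotic spindle, fell after siLARP4A in PC3 (-0.54) and MG63 (-0.50) and after siLARP4B in PC3 (-1.34) and MG63 (-0.34). The CD44 sheddase gene ADAM10 fell after siLARP4B in MG63 (-0.75) and PC3 (-1.17) and rose after siLARP4A in PC3 (0.27), and MSN fell after siLARP4B in both lines (-0.50 in PC3 and -0.12 in MG63).

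Intermediate filament genes other than VIM were tested for 17 of 19. After siLARP4A 7 rose and 4 fell in each line (medians 0.09 in PC3 and 0.07 in MG63), and after siLARP4B 4 rose and 7 fell in PC3 (median -0.13) and 2 rose and 9 fell in MG63 (median -0.29). The share was 64.7% in each of the 4 comparisons, where all genes gave 36.0%, 44.7%, 26.4% and 35.1%. NES, the nestin gene, rose after siLARP4A in PC3 (0.53), where KRT7 fell (-0.39, lost without either siControl library or siLARP4A replicate 1, at -0.42 to -0.22). The lamin gene LMNB1 fell and the keratin gene KRT81 rose after siLARP4B in PC3 (-1.36 and 0.65). NES fell after siLARP4B in PC3 (-0.57), and KRT81 fell after siLARP4A in PC3 (-0.29) and after siLARP4B in MG63 (-2.43) but rose after siLARP4A in MG63 (1.64). In MG63 KRT80 rose (0.36) and SYNC fell (-0.28) after siLARP4A, and LMNB2 rose (0.17, lost without siControl replicate 1 at 0.17 or siLARP4B replicate 2 at 0.14) and SYNM fell (-0.84) after siLARP4B. In the other comparisons KRT80 fell after siLARP4A in PC3 (-0.27) and after siLARP4B in MG63 (-0.82), LMNB2 fell after siLARP4B in PC3 (-0.51) and siLARP4A in MG63 (-0.21), and SYNM rose after siLARP4A in PC3 (0.20). The 11 calls after siLARP4A in MG63 became 6 without siLARP4A replicate 2. Keratins are close paralogs, so a split of their reads between copies is uncertain.

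**Figure D5:**
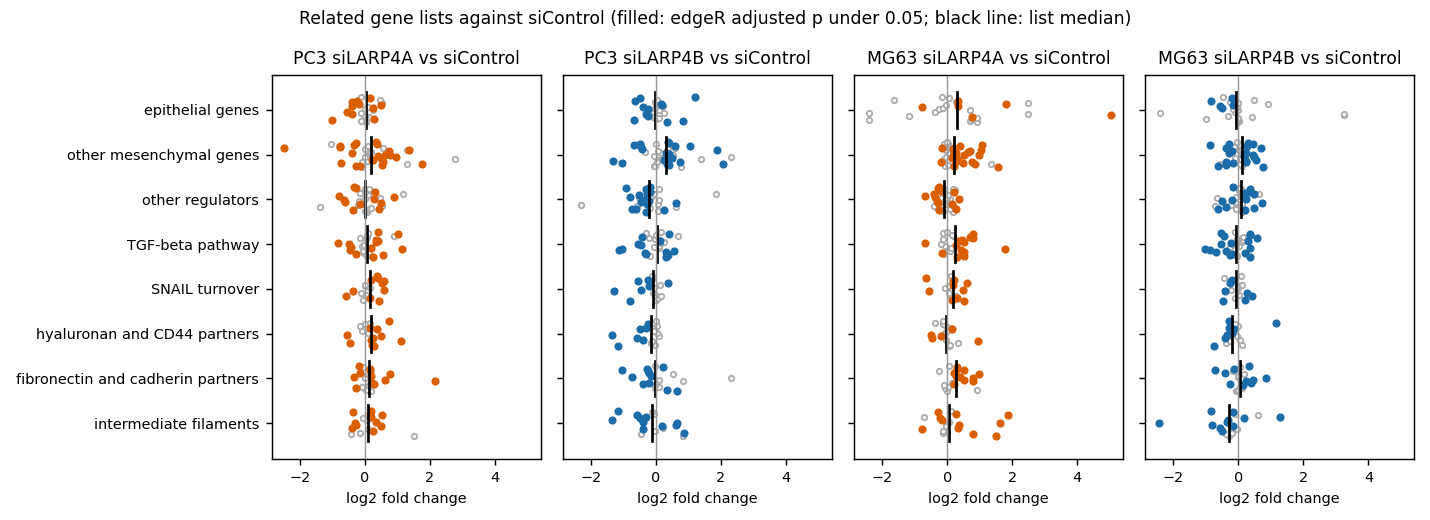
Log2 fold change against siControl of each tested gene in 8 related lists for the 4 knockdown comparisons; filled points passed an edgeR adjusted p of 0.05 and the black line is the list's median. After siLARP4A in MG63 the medians are 0.29 for the epithelial genes, 0.27 for fibronectin and cadherin partners and 0.24 for the TGF-beta list. They are 0.22 for the other mesenchymal genes, 0.17 for SNAIL turnover and 0.07 for intermediate filaments. The medians of hyaluronan and CD44 partners (-0.04) and of the other regulators (-0.11) lie to the left of 0. After siLARP4B in PC3 the other regulators have a median of -0.23 and the other mesenchymal genes one of 0.32.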

How the data were processed

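Poly(A) RNA of 12 libraries was sequenced. The authors deposited 1 table per library for 86394 transcript models. Per the file headers its columns are a fragment count, FPM (a signal scaled by library total, deposited by the authors) and FPKM, which is FPM per length. A fragment in a shared exon is counted in several models. The submitters' processing notes name hg38, FastQC, HISAT2, featureCounts and edgeR. The annotation and strand handling are not given in the sources used here. Models on chromosomes 1 to 22 and X were kept, 1744 symbols at several loci were left out, and the model with the most fragments stood for each of 26419 genes. The count test was edgeR 4.0.16 (R 4.3.3) with TMM scaling, default expression filter, 1 fit of 12 libraries with a mean per group, quasi-likelihood F-test, two-sided, Benjamini-Hochberg adjustment within each of 9 comparisons over 15672 genes, threshold 0.05. The biological coefficient of variation was 4.21%, on 2 libraries per group. The SE given with an edgeR log2 change was derived from the test, as the absolute change over the square root of the F statistic. TWIST2 was part of this fit, but its estimates were set aside where PC3 enters, because it had 0 fragments there. DESeq2 1.42.0 and limma 3.58.1 on log2(FPKM + 1), with a pseudocount of 1, were alternatives, as were DESeq2 size factors, no filter, the longest model, a deduplicated table deposited for PC3 siControl replicate 2, a replicate block, the libraries of the comparison only, and leaving out each library. The deduplicated table, which keeps 86.6% of the counts, replaced that of PC3 siControl replicate 2 only. The other libraries were not deduplicated. From each of the 8 lists and each comparison with siControl, the highest and lowest log2 change past the threshold were named, at a mean of at least 5 FPKM in either group, and genes most like a member were named where it changed by at least 1 on the log2 scale. The members and lists were chosen with earlier results of these data known. Some genes that the rule names are not reported here. CDH1 was named outside this rule, after its values were seen.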

Additional observations from a re-analysis of the deposited data

Results flagged for a closer look

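Each value here is the effect of an siRNA in PC3 minus its effect in MG63 on the log2 scale, and each was singled out because the interaction term passed an edgeR adjusted p of 0.05. For siLARP4A these were ZEB2 at 1.26, FN1 at 0.41 and VIM at 0.29, with a higher change in PC3, and CD44 at -0.60 and CDH2 at -0.31, with a lower one. ZEB2 rests on 19 to 70 fragments per library in the PC3 groups compared and was 0.17 in limma (limma adjusted p 0.20). With the deduplicated table of PC3 siControl replicate 2 the FN1 and VIM differences were 0.39 and 0.37 (edgeR adjusted p 0.068 and 0.073). The other libraries in that fit were not deduplicated, so it cannot show the effect of duplicates. CD44 moved in opposite directions in the lines, and the CDH2 difference was lost in 11 of 20 alternatives. For siLARP4B they were SNAI2 at -0.81, TWIST1 at -0.48, FN1 at -0.35 and VIM at -0.23. The SNAI2 difference held in all 20 alternatives run, and those of TWIST1, FN1 and VIM were lost in some fits without 1 library and in limma, that of FN1 also by DESeq2 and that of VIM also with the deduplicated table (-0.15, edgeR adjusted p 0.41).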

How the results depend on the processing

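Of the 53 calls of these genes in 9 comparisons, 31 were kept under every alternative run and 22 were lost under at least 1, and no called value changed direction. The number of genes called after siLARP4B in PC3 was 2 with the longest model and 2 with DESeq2, against 4. In the difference between lines it was 3 with the deduplicated table for siLARP4A, against 5, and 1 in limma for siLARP4B, against 4. Leaving out 1 library gave 6 to 7 called genes for siLARP4A and 2 to 4 for siLARP4B in PC3, 4 to 5 and 2 to 5 in MG63, 5 to 8 and 6 to 8 between the siRNAs in PC3 and MG63, 4 to 5 and 1 to 4 for the differences between lines, and 9 in every case between siControl cells. Of all genes tested, 4138 passed after siLARP4A in MG63, and 2697 to 2700 without MG63 siControl replicate 1 or 2 or MG63 siLARP4A replicate 1. For the siLARP4A difference between lines 1784 passed, and 1049 to 1175 without PC3 siControl replicate 1 or any 1 of the MG63 siControl and siLARP4A libraries. Of 63 calls of listed genes, targets and CDH1, 55 were kept under every alternative. Of 32 list counts 21 stayed within 1.5 times, and the epithelial count after siLARP4A in PC3 was 7 by DESeq2 against 11. A group left with 1 library is assumed to vary like the others. Same-numbered replicates deviated from their group means with correlations of -0.0272 to 0.0496, so no large shared shift was seen. Whether cultures with equal numbers were made together is not given, and these values cannot settle it. With the replicate block the SNAI2 change after siLARP4B in PC3 was -0.20 (edgeR adjusted p 0.056), the sole call lost. Depth limits ZEB2 in PC3 and the EDB exon there.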
